A study of Mus musculus with 2 samples.

Results

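The vascular endothelial growth factor (VEGF) family was examined across the cell classes of whole mouse lung. The 8 genes were chosen by name: the ligands Vegfa, Vegfb and Vegfc, the receptor kinases Kdr, Flt1 and Flt4, and the neuropilin co-receptors Nrp1 and Nrp2. Each symbol matched 1 row of the 27998 genes in both count matrices, so all 8 members were found. The series holds 2 lung libraries made with the 10x Genomics Chromium 3′ V2 kit, in which each transcript captured from a cell is counted once as a unique molecular identifier (UMI). The control library and the fibrosis library each came from 1 male C57Bl/6J mouse, 3 months of age. Mice of the study were given 100 µg of TiO2 particles or of crocidolite asbestos fibres into the trachea and their lungs were taken 14 days later. The labels name the groups as control and fibrosis and do not state for each mouse which particle it received. Single-cell suspensions came from enzymatic digestion of the lung, and the labels name no sort for a cell type. With 1 library a group, mouse, library preparation and condition cannot be told apart, so no p-value is given and every interval covers counting error only.

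VEGF-A is the principal growth and survival factor of blood vessel endothelium, VEGF-C is the main growth factor of lymphatic vessels, and VEGF-B binds Flt1 and has weaker effects on vessel growth. Kdr is the main signalling receptor for VEGF-A, Flt1 binds VEGF-A tightly with weak kinase activity and is often described as a decoy, and Flt4 is the receptor for VEGF-C on lymphatic endothelium. Neuropilins hold VEGF beside these receptors and also bind class 3 semaphorins. In the alveolus the thin type 1 (AT1) epithelial cell is a known source of Vegfa, and it lies against a capillary cell rich in carbonic anhydrase 4 (Car4) and Kdr, called the aerocyte.

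Depth was 36632591 UMIs over 8280 cells (control) and 38090308 UMIs over 7173 cells (fibrosis), with 3783.5 and 4292 UMIs in the median cell and at least 1460 and 1915 in each. After filters 7510 and 6777 cells were kept, and 89 cell barcodes occurred in both libraries. Cells were placed in classes by marker genes that include no VEGF gene, and 12523 cells (87.7%) found a class. Names such as AT2-like rest on those markers. Classes of at least 20 cells in each library, 18 in all, are described here. A class cut from a score is a range: 4 and 27 cells lay near the cut for AT2-like, 16 and 21 for blood endothelial-like, and 45 and 164 for alveolar macrophage-like cells in the control and fibrosis library. Over all cells of each of these classes, no other class had a median score above 0.134, and the class's own median score was at least 0.4045.

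Levels are given as the summed UMIs of a gene in a class divided by all UMIs of that class and scaled as usual to CPM, with an exact Poisson 95% interval, and are compared within a gene and not between genes. A difference between the libraries was called where the CPM ratio reached 1.5-fold, its exact 95% interval lay off 1 and at least 20 UMIs were counted over both libraries. Of 144 gene and class pairs, 52 held enough UMIs, and of these 8 were called higher in the fibrosis library, 4 lower and 40 neither. The 20-UMI minimum counts both libraries together, so a pair could pass it through 1 library alone.

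**Figure D1:**
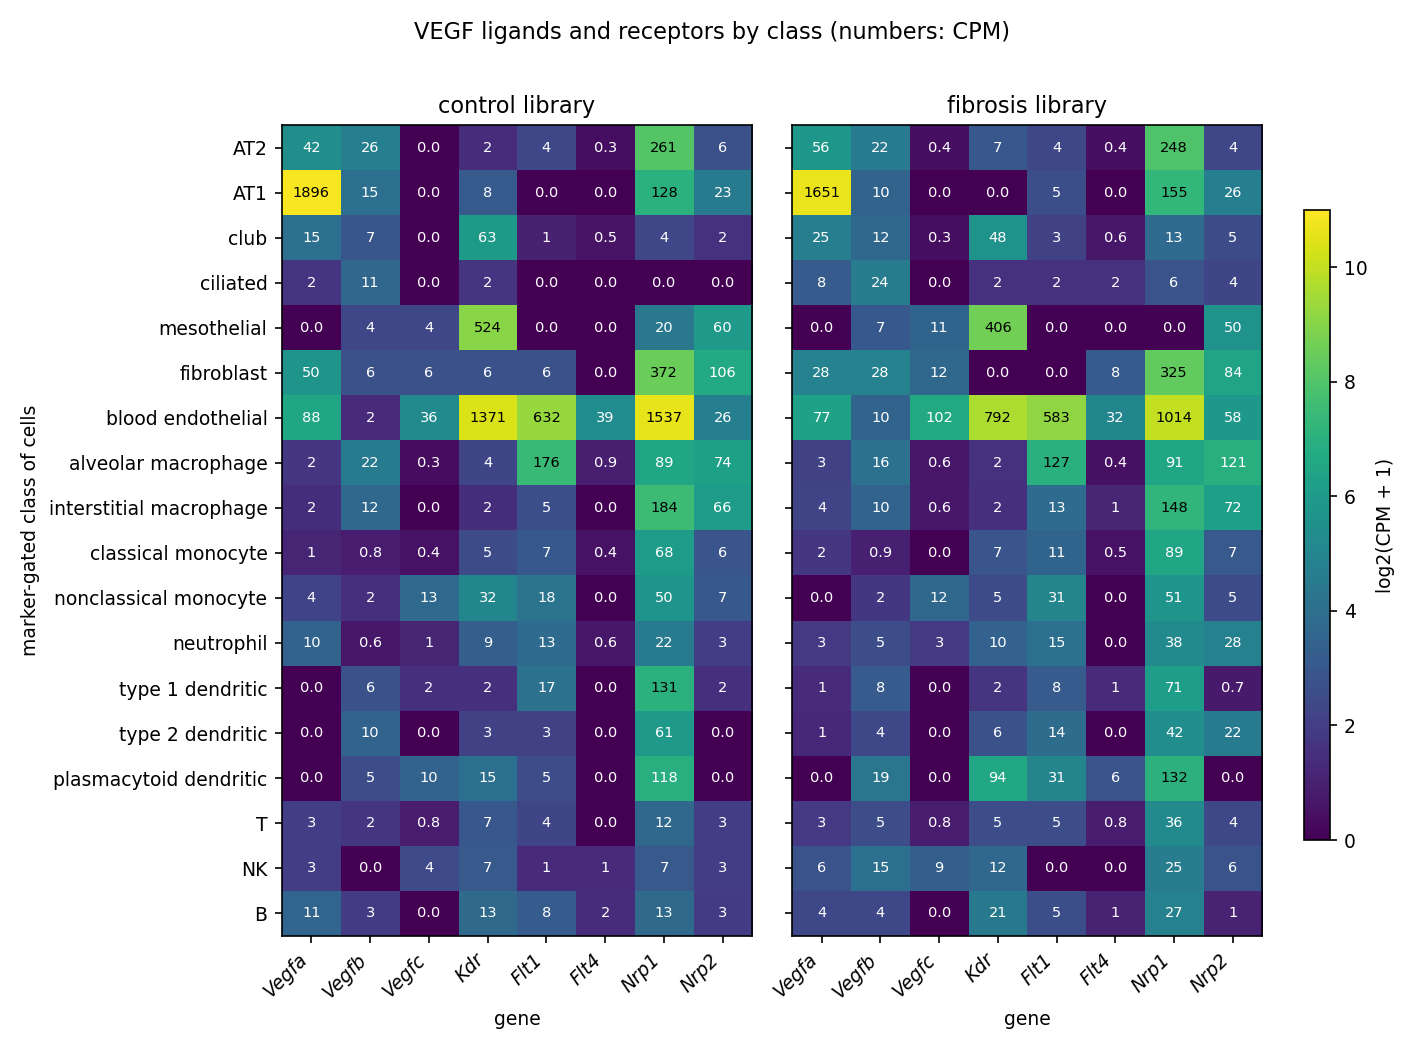
Heat map of the level of each VEGF gene (columns) in each of 18 marker-gated classes (rows) in the control (left) and fibrosis (right) library, with CPM printed in each cell and colour as log2(CPM + 1). Read down a column: Vegfa stands out in AT1-like cells (1896 and 1651 CPM), Kdr in blood endothelial-like and mesothelial-like cells, and Nrp2 in macrophage-like cells and fibroblast-like cells.

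The promoters of 4 genes are shown because the endothelial results turn on them: Kdr and Nrp1 were high in one kind of endothelial cell and Vegfc and Nrp2 in another. Whether the promoters bear on this was not tested. They are RefSeq promoter sequence of build GRCm38.p6 from 250 bases before to 50 bases after the transcription start, on the gene's strand, 5′ to 3′. The windows are chr5:75978406-75978705 on the minus strand for Kdr and, on the plus strand, chr8:128358823-128359122 for Nrp1, chr8:54077282-54077581 for Vegfc and chr1:62703067-62703366 for Nrp2. These RefSeq starts can differ from the gene positions given below. By those positions the Nrp1 window lies wholly inside its gene and the Vegfc window ends before its gene begins. Capitals mark GGAAG, which reads as CTTCC where it lies on the opposite strand. It holds the core letters GGAA, bound by ETS factors, and a flanking base.
Kdr: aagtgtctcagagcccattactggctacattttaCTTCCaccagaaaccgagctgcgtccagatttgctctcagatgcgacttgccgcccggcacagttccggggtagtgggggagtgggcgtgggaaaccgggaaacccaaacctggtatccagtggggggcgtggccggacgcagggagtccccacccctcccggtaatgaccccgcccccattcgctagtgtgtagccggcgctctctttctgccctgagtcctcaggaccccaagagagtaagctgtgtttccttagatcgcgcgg
Nrp1: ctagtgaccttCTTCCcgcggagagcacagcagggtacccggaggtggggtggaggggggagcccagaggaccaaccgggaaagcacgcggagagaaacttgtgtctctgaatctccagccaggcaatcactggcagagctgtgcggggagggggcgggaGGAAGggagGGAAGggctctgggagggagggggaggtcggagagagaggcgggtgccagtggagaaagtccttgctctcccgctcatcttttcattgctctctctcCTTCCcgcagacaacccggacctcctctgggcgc
Vegfc: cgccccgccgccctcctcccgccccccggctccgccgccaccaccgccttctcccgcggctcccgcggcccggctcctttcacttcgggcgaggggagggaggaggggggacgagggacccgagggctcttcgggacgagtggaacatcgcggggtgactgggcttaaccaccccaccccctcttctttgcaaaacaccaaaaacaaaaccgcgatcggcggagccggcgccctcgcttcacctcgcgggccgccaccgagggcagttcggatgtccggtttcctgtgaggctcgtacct
Nrp2: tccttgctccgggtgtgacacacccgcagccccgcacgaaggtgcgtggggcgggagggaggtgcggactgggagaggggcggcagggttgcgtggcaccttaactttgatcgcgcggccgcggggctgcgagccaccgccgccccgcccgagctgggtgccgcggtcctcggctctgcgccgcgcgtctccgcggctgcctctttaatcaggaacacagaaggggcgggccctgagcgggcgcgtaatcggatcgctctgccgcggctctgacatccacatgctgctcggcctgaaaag
The Kdr window held 1 match of GGAAG and the Nrp1 window 4, whereas the Vegfc and Nrp2 windows held 0. The core GGAA without the flanking base was not counted, and it does occur in the Vegfc and Nrp2 windows. GGAAG occurred in 71.4% of all 32851 promoter windows of this length, so a match sets none of the 4 apart. The core of the hypoxia response element, ACGTG on one strand and so CACGT on the opposite one, occurred in 19.6% of all windows and in none of these 4, and the GC box, GGGCGG searched on both strands, in 35.7% of all windows, with 2 matches in Kdr, 1 in Nrp1, 2 in Vegfc and 5 in Nrp2. GC content was 60.7% for Kdr, 64.0% for Nrp1, 70.3% for Vegfc and 70.7% for Nrp2. A match of letters is no site, and its absence says only that these letters are not in the window.

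Vegfa (ENSMUSG00000023951, build GRCm38, chr17:46016993-46032369, minus strand) was a transcript of AT1-like cells. The 28 AT1-like cells of the control library held 251 UMIs, 1896 CPM (95% interval 1669 to 2146), and the 40 of the fibrosis library 319 UMIs, 1651 CPM (1475 to 1843). At least 1 UMI was found in 100% and 95% of them. The log2 ratio was -0.20 (-0.44 to 0.04) and was not called. The next levels were far lower: blood endothelial-like cells held 88.1 and 76.7 CPM in the control and fibrosis library, type 2 alveolar epithelial (AT2)-like cells 41.8 and 55.7, and fibroblast-like cells 50.02 and 28.1 from 9 and 7 UMIs. In the control library the interval of fibroblast-like cells (22.9 to 94.96) overlapped that of AT2-like cells (36.9 to 47.3) and included the blood endothelial-like level. In the fibrosis library the intervals of AT2-like (51.4 to 60.3), fibroblast-like (11.3 to 57.9) and blood endothelial-like cells (57.3 to 100.6) overlapped.

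In the surfactant-making AT2-like cells Vegfa rested on 257 UMIs in 1008 control cells and 613 in 1785 fibrosis cells. The log2 ratio of 0.41 (0.20 to 0.63) lay off 0 but under the 1.5-fold rule, so no change was called. These cells were many, and they held 36.3% of all Vegfa UMIs in the control library (exact 95% interval 32.8 to 40.0) and 51.0% in the fibrosis library (48.2 to 53.9). AT1-like cells, 0.373% and 0.590% of the kept cells, held 35.5% and 26.6%. Such shares move with the number of cells of a class in the suspension as well as with the level. Over all kept cells Vegfa stood at 21.8 and 33.5 CPM.

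Of 2 AT1-like results tested, Vegfa and Nrp1, none was called, beside 12.4% of the genes tested in that class. Club-like cells, the secretory cells of the airway, held 29 and 81 Vegfa UMIs, 15.0 and 25.0 CPM, a log2 ratio of 0.74 (0.11 to 1.402) that was called higher. Nrp1 was the other call there, with 8 and 43 UMIs, 4.14 and 13.3 CPM and a log2 ratio of 1.68 (0.58 to 2.98). These were 2 of 5 VEGF genes tested in club-like cells, beside 13.3% of all genes. Over all genes tested in the class 1146 were called higher and 174 lower, and the median log2 ratio was 0.23. The class lay mainly in the same clusters in both libraries, in different proportions. The one led by Scgb3a1 and Bpifa1 held 43 control and 91 fibrosis cells. The ciliated cluster led by Ccdc153 held 46 and 61. Vegfa was 8.03 CPM (2.61 to 18.7, 5 UMIs) and 26.9 (18.9 to 37.3, 36 UMIs) in the first, a log2 ratio of 1.75 (0.39 to 3.45). In the second it was 18.3 CPM (11.7 to 27.2) and 22.5 (16.2 to 30.4), with a ratio of 0.295 whose interval (-0.46 to 1.08) included 0. Both club-like levels of Nrp1 were no higher than those of B-like cells (13.03 and 27.3 CPM), a class that should lack it.

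Vegfb (ENSMUSG00000024962, chr19:6982473-6987651, minus strand) was low in every class. Its highest level over both libraries was that of AT2-like cells, 26.2 CPM (22.3 to 30.6) in the control and 21.65 (19.0 to 24.6) in the fibrosis library. Alveolar macrophage-like cells followed with 22.0 CPM (17.3 to 27.6) and 16.1 (12.8 to 20.01). In the fibrosis library fibroblast-like cells held 28.1 CPM (11.3 to 57.9) from 7 UMIs, and 1 UMI in the control library. Ciliated-like cells, with 5 and 12 UMIs, held 11.3 and 23.9 CPM. The intervals of AT2-like and alveolar macrophage-like cells overlapped in each library, and the log2 ratios of -0.28 (-0.57 to 0.02) and -0.45 (-0.92 to 0.02) were not called. AT2-like cells held 52.1% and 47.3% of Vegfb UMIs and alveolar macrophage-like cells 23.9% and 16.1%. Club-like cells went from 6.72 to 12.3 CPM, with a log2 ratio of 0.88 whose interval (-0.06 to 1.90) included 0.

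Vegfc (ENSMUSG00000031520, chr8:54077606-54187096, plus strand) was the rarest ligand by UMIs, with 54 over the control cells and 107 over the fibrosis cells. Blood endothelial-like cells held 24 of the 54 (44.4%, 30.9 to 58.6) and 69 of the 107 (64.5%, 54.6 to 73.5). Their level was 36.4 CPM (23.4 to 54.2) in the control and 101.8 (79.2 to 128.8) in the fibrosis library. The intervals did not overlap, and the log2 ratio of 1.48 (0.79 to 2.22) was called higher. Nonclassical monocyte-like cells were among the next, at 12.51 and 12.1 CPM from 7 and 5 UMIs. B-like cells held 0 Vegfc UMIs in 849 control and 345 fibrosis cells, which allows up to 0.353% and 0.870% of cells with a UMI.

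**Figure D2:**
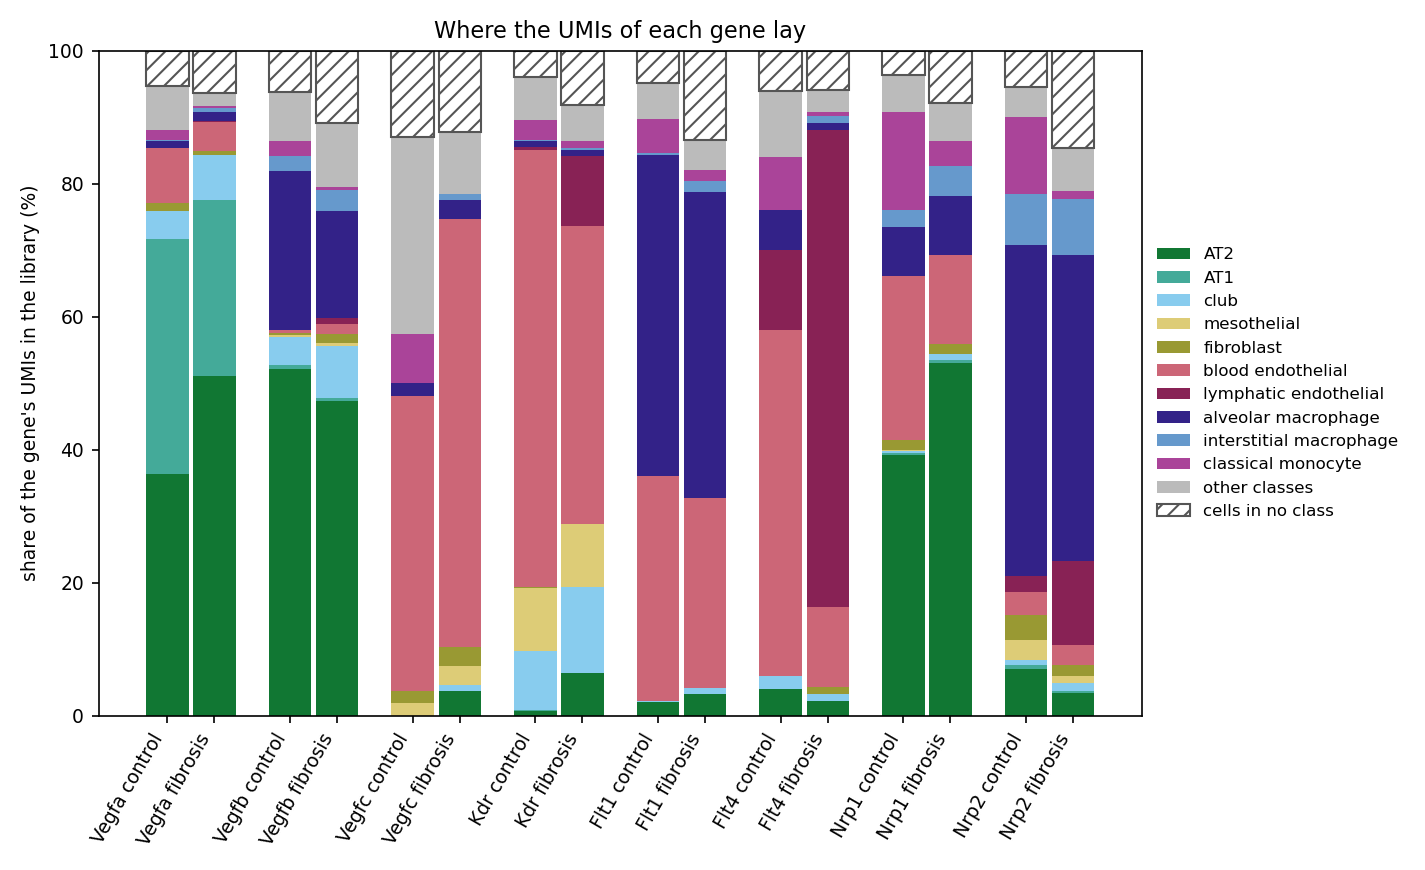
Stacked bars of the share of each gene's UMIs (%, vertical axis) that lay in each class, 1 bar for the control and 1 for the fibrosis library, with white hatched parts for cells in no class. AT2-like cells held the largest part of Nrp1, 39.2% and 53.0%, while lymphatic endothelial-like cells held 12% and 71.7% of the Flt4 UMIs with 6 and 24 such cells captured.

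Kdr (ENSMUSG00000062960, chr5:75932827-75978458, minus strand) was, among the described classes, highest in blood endothelial-like cells. The 252 control cells held 903 UMIs, 1371 CPM (1283 to 1464), and the 175 fibrosis cells 537 UMIs, 792 CPM (727 to 862). The intervals did not overlap, and the log2 ratio of -0.79 (-0.95 to -0.64) was called lower in the fibrosis library. The call was lost with the mean of each cell's CPM (-0.57) and less the median ratio of the other classes (-0.42). The few lymphatic endothelial-like cells, outside the described classes, had a higher Kdr CPM than mesothelial-like cells in both libraries (below). With 6 such cells in the control library, no order is read there. Mesothelial-like cells, the lining of the pleura, came next among the described classes. They held 131 and 114 UMIs in 33 and 32 cells, 524 CPM (438 to 622) and 406 (335 to 488). Their log2 ratio was -0.37 (-0.74 to 0.01), not called, and no VEGF gene of 2 tested was called there, beside 8.55% of all genes. A Kdr UMI was found in 90.9% and 87.5% of them.

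Club-like cells held 122 and 155 Kdr UMIs, 63.1 CPM (52.4 to 75.3) and 47.8 (40.6 to 56.0), with 21059 and 18011 UMIs in the median cell. Of these Kdr UMIs, 100 and 101 lay in club-like cells of the ciliated cluster led by Ccdc153, at 76.3 and 54.0 CPM. The ciliated-like class itself held 1 Kdr UMI in each library, 2.25 and 1.99 CPM. In the cluster led by Scgb3a1, Kdr was 35.3 CPM in control and 40.4 in fibrosis club-like cells. After each cell was thinned to 1000 UMIs, 4.49% and 1.94% of club-like cells had a Kdr UMI, beside 1.296% and 1.16% of B-like cells, which should lack it. The same thinned share was 61.1% and 46.3% in blood endothelial-like and 45.5% and 53.1% in mesothelial-like cells. Unthinned, 47.2% and 42.6% of club-like and 2.59% and 3.48% of B-like cells had a Kdr UMI.

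In AT2-like cells Kdr went from 10 UMIs (1.63 CPM) to 77 (7.003 CPM), a log2 ratio of 2.10 (1.15 to 3.22) that met the call rule. It was 1 of 6 VEGF genes tested in AT2-like cells, beside 9.28% of all genes. Of the 77 fibrosis UMIs, 54 lay in 26 AT2-like cells that fell, by clustering on variable genes other than the VEGF and pathway genes, in the endothelial cluster led by Fibin and Ednrb. The 50 fibrosis AT2-like cells with 3 or more of 10 blood endothelial markers held 55 of the 77. Without such cells the log2 ratio was 0.32 and not called, and with no doublet removal it was -0.45. Both AT2-like levels were below those of B-like cells (13.03 and 21.03 CPM).

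Nonclassical monocyte-like cells, which patrol vessel walls, held 18 Kdr UMIs in 183 control cells and 2 in 143 fibrosis cells, 32.2 and 4.83 CPM. The log2 ratio of -2.74 (-5.89 to -0.67) was called lower, 1 of 3 VEGF genes tested in that class beside 7.64% of all genes. After thinning, 2.19% (0.599 to 5.50) and 0% of these cells had a Kdr UMI, which allows up to 2.10% in the fibrosis library. The thinned share of B-like cells, 1.296% in the control library, lay within the first interval.

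Flt1 (ENSMUSG00000029648, chr5:147561604-147726011, minus strand) had 2 main sites, blood endothelium and alveolar macrophages. Blood endothelial-like cells held 416 and 395 UMIs, 632 CPM (573 to 696) in the control and 583 (527 to 643) in the fibrosis library, with a log2 ratio of -0.12 (-0.32 to 0.09). Alveolar macrophage-like cells held 593 UMIs in 659 control cells and 639 in 873 fibrosis cells, 176 CPM (162 to 191) and 127 (117 to 137). Those intervals did not overlap, but the log2 ratio of -0.47 (-0.64 to -0.31) was under the 1.5-fold rule. Because alveolar macrophage-like cells were many, they held 48.2% and 46.2% of all Flt1 UMIs, against 33.8% and 28.5% in blood endothelial-like cells. After thinning, 14.4% and 13.3% of alveolar macrophage-like cells had a Flt1 UMI, beside 0.707% and 0% of B-like cells. Interstitial macrophage-like cells, marked by C1q genes, held 5.25 and 13.5 CPM from 3 and 21 UMIs.

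Flt4 (ENSMUSG00000020357, chr11:49609263-49652739, plus strand) had few UMIs, 50 over the control cells and 184 over the fibrosis cells. Lymphatic endothelial-like cells, 6 and 24 in number and so outside the described classes, held 6 UMIs (563 CPM, 207 to 1225) and 132 (831 CPM, 695 to 985). Blood endothelial-like cells held 26 and 22 UMIs, 39.5 CPM (25.8 to 57.9) and 32.5 (20.3 to 49.1), with a log2 ratio of -0.28 (-1.17 to 0.59). The same lymphatic cells held Kdr at 657 and 793 CPM and Nrp2 at 1126 and 1063. They held 0 Flt1 UMIs in both libraries and 0 and 1 of Nrp1. With 6 control cells the zero counts there allow up to 281.5 CPM, and with 24 fibrosis cells up to 18.9 CPM.

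The endothelial calls were examined by the kind of endothelial cell. All 10 blood endothelial markers, such as Cldn5, Cdh5 and Egfl7, were found in both libraries and summed to 20259.6 and 13309.5 CPM in this class. Markers of AT2 cells summed there to 2416 and 3997 CPM and those of club cells to 6960 and 3531 CPM, and such epithelial transcripts were also found in macrophage-like, T-like and B-like cells. Their part in the endothelial values was not tested. Of 7 VEGF genes tested in blood endothelial-like cells, Vegfc and Nrp2 were called higher and Kdr and Nrp1 lower in the fibrosis library, beside 13.5% of all genes tested there. Nrp2, which favours VEGF-C and class 3 semaphorins, held 17 control UMIs at 25.8 CPM (15.04 to 41.3) and 39 fibrosis UMIs at 57.5 CPM (40.9 to 78.7), and its log2 ratio was 1.16 (0.30 to 2.07). Each cell was placed as aerocyte-like (Car4, Ednrb, Fibin, Tbx2, Chst1, Prx), general capillary-like (Gpihbp1, Kit, Glp1r, Cd93, Lpl, Bmp6) or large vessel-like (Vwf, Slc6a2, Bst1, Cpe, Gja4, Gja5, Vcam1, Mgp) by its highest marker score. Glp1r was at 0 in every subset of both libraries. Aerocyte-like cells were 144 of 252 in the control (57.1%, exact 95% interval 50.8 to 63.3) and 59 of 175 in the fibrosis library (33.7%, 26.8 to 41.2). Large vessel-like cells were 39 (15.5%, 11.2 to 20.5) and 67 (38.3%, 31.1 to 45.9), and general capillary-like cells 69 (27.4%) and 49 (28.0%).

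The libraries had different UMI floors, and the median aerocyte-like cell held 2018 and 2440 UMIs. With a floor of 2000 UMIs in both libraries, chosen after the makeup was seen, the aerocyte-like share was 54.0% of 137 and 31.7% of 167 cells, and the large vessel-like share 21.2% and 39.5%. By clusters, the one led by Fibin and Ednrb held 147 control and 57 fibrosis cells of the class, and the one led by Vwf and Plvap 105 and 118. Shares of cells recovered from a digested lung need not be shares in the tissue.

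Kdr and Nrp1 were genes of the aerocyte-like subset, and within it the libraries were close. Kdr stood at 2570.1 CPM (2395 to 2755, 800 UMIs) in control and 2687 CPM (2438 to 2955, 427 UMIs) in fibrosis aerocyte-like cells, a log2 ratio of 0.06 (-0.11 to 0.24). General capillary-like cells held 367 and 279 CPM and large vessel-like cells 199 and 183 CPM, with intervals far below those of aerocyte-like cells in each library. Nrp1 stood at 2541 CPM (2367 to 2725) and 2354 (2121 to 2605) in aerocyte-like cells, a log2 ratio of -0.11 (-0.29 to 0.07). It was 684 and 589 CPM in general capillary-like and 570.4 and 609.5 in large vessel-like cells. Each aerocyte-like cell of the fibrosis library with a Kdr UMI also had a Nrp1 UMI (59 of 59), and in the control library 140 did and 2 did not.

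Vegfc and Nrp2 lay at the other end. Aerocyte-like cells held 0 UMIs of either gene in both libraries, which allows up to 9.64 CPM in the control and 18.9 CPM in the fibrosis library. Large vessel-like cells held 17 and 65 Vegfc UMIs, 117 CPM (68.0 to 187) and 180.1 (139 to 230), with a log2 ratio of 0.62 (-0.16 to 1.49) that was not called. Their Nrp2 level was 109.95 CPM (62.8 to 179) from 16 UMIs and 105 CPM (74.5 to 145) from 38, a log2 ratio of -0.06 (-0.94 to 0.88). General capillary-like cells held 34.7 and 25.3 CPM of Vegfc and 1 Nrp2 UMI in each library.

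Vegfa was also not detected in aerocyte-like cells, with 0 UMIs in both libraries. It stood at 154 and 158 CPM in general capillary-like cells. In large vessel-like cells it went from 27 UMIs, 186 CPM (122 to 270), to 27 UMIs of a larger total, 74.8 CPM (49.3 to 109). The log2 ratio of -1.31 (-2.14 to -0.49) was called lower, 1 of 6 VEGF genes tested in that subset, beside 8.65% of all genes. With subsets kept only to cells with 2 or more of their own markers and at most 1 of another, it was -0.59 and not called. After thinning, 7.69% of control and 10.4% of fibrosis large vessel-like cells had a Vegfa UMI, the other direction from the CPM. Flt1 ran the other way from Kdr, at 463 and 447 CPM in aerocyte-like, 664 and 557 in general capillary-like and 948 and 654 in large vessel-like cells. Its log2 ratio in large vessel-like cells was -0.54 (-0.85 to -0.22), under the 1.5-fold rule. No VEGF gene was called in the aerocyte-like subset, beside 8.42% of all genes, or in the general capillary-like subset, beside 9.86%.

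To see how the calls moved with the makeup, the subset levels of both libraries were weighted by the subset shares of the control library. The weighted log2 ratio of Kdr was 0.04 against -0.79 unweighted. Nrp1 had a log2 ratio of -0.11 against -0.60, Vegfc 0.34 against 1.48, and Nrp2 -0.03 against 1.16. This weighting was added after the levels had been seen, and it carries no interval.

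**Figure D3:**
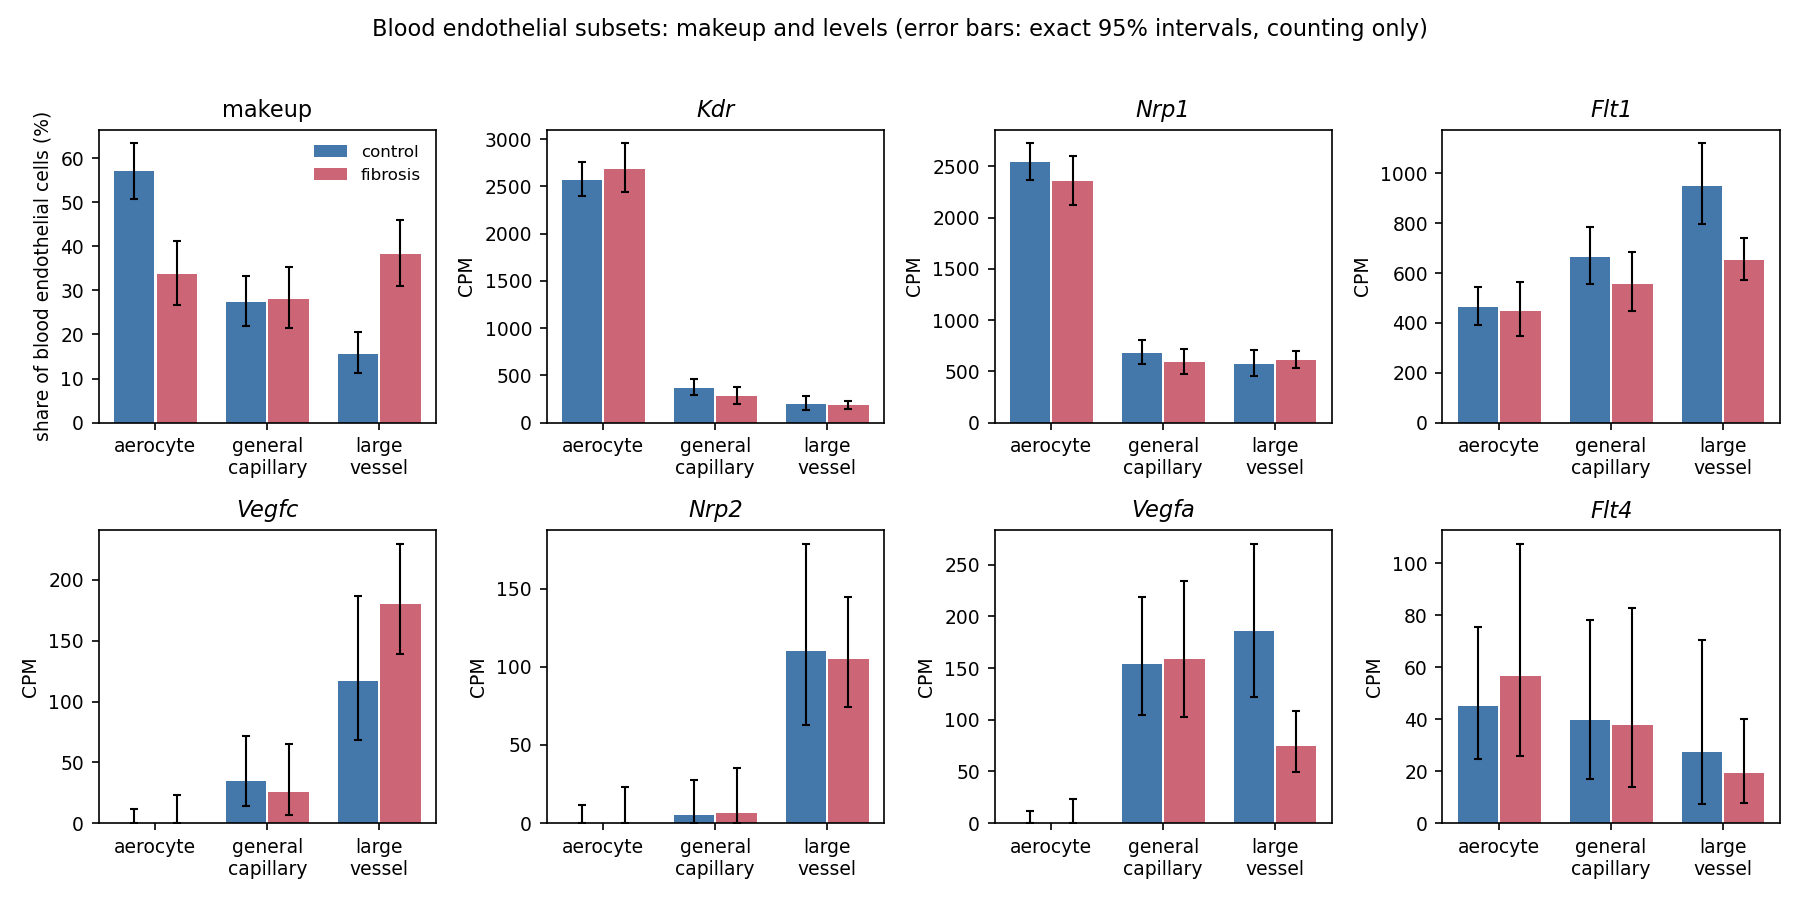
Makeup of the blood endothelial-like cells (first panel, % of cells) and CPM of 7 VEGF genes in 3 subsets, with the control library in blue, the fibrosis library in red and exact 95% intervals as error bars (counting error only). Aerocyte-like cells hold about the same Kdr and Nrp1 in both libraries (2570.1 and 2687 CPM of Kdr), while their share is 57.1% in control and 33.7% in fibrosis cells.

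Nrp1 (ENSMUSG00000025810, chr8:128358604-128503363, plus strand) was the most widespread member, with a UMI in 2071 control and 2626 fibrosis cells. Blood endothelial-like cells led with 1012 and 687 UMIs, 1537 CPM (1444 to 1635) and 1014 (939 to 1092), a log2 ratio of -0.60 (-0.74 to -0.46) that was called lower. The ratio is just past 1.5-fold, and the call was lost with classes from clusters (-0.53), a floor of 2000 UMIs (-0.49), at most 5% mitochondrial counts (-0.57), other doublet removal (-0.58 and -0.57) and the mean of each cell's CPM (-0.51). Fibroblast-like cells followed with 372 CPM (289 to 473) and 325 (258 to 404). AT2-like cells held 261 CPM (249 to 275) and 248 (239 to 258), from 1606 and 2732 UMIs, with a log2 ratio of -0.07 (-0.16 to 0.02). The interval of fibroblast-like cells lay above that of AT2-like cells in both libraries, by a small margin in the fibrosis library. Interstitial macrophage-like cells held 184 and 148 CPM, AT1-like cells 128 and 155, plasmacytoid dendritic-like cells 118 and 132, and type 1 dendritic-like cells 131 and 71.2. In the control library the intervals of these last 4 classes overlapped.

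The call in type 1 dendritic-like cells, which present antigen to CD8 T cells, was lower, with 70 UMIs in 82 control cells and 98 in 199 fibrosis cells. Its log2 ratio was -0.88 (-1.33 to -0.41), 1 of 2 VEGF genes tested there beside 7.78% of all genes. After thinning, 6.10% and 7.54% of these cells had a Nrp1 UMI, the other direction from the CPM, so no order is read from that share. Type 2 dendritic-like cells held 61.3 and 41.6 CPM, with a log2 ratio of -0.56 (-1.45 to 0.37).

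T-like cells held 15 and 43 Nrp1 UMIs in 417 and 368 cells, 11.7 CPM (6.53 to 19.2) and 36.0 (26.1 to 48.5). The log2 ratio of 1.63 (0.75 to 2.58) was called higher, the 1 VEGF gene tested in T-like cells, beside 9.23% of all genes. Nrp1 is a known surface marker of thymus-derived regulatory T cells. Cells with Foxp3, or with 2 or more of Foxp3, Ctla4, Ikzf2 and Il2ra, were 16 of the control and 42 of the fibrosis T-like cells and held 8 and 20 Nrp1 UMIs, 140.2 CPM (60.5 to 276) and 126 (76.9 to 194). The other T-like cells held 5.69 CPM (2.29 to 11.7) and 22.2 (14.1 to 33.3). Those levels, and the control level of all T-like cells, were no higher than in B-like cells, which should lack Nrp1. B-like cells held 24 and 26 Nrp1 UMIs, 13.03 and 27.3 CPM, with a log2 ratio of 1.07 (0.21 to 1.93) that was called, 1 of 4 VEGF genes tested there beside 9.36% of all genes. Without the cell with the most Nrp1 UMIs in each library it was 0.67 and not called, since 8 of the 26 fibrosis UMIs came from 1 cell.

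Nrp2 (ENSMUSG00000025969, chr1:62703285-62818695, plus strand) was found in macrophage-like, fibroblast-like, mesothelial-like and large vessel-like cells, and at its highest level in the few lymphatic endothelial-like cells (above). Alveolar macrophage-like cells held 250 and 608 UMIs, 74.3 CPM (65.4 to 84.1) in the control and 121 (111 to 131) in the fibrosis library. The intervals did not overlap, and the log2 ratio of 0.70 (0.49 to 0.92) was called higher, 1 of 6 VEGF genes tested there beside 8.73% of all genes. After thinning, 6.07% and 10.997% of these cells had a Nrp2 UMI, beside 0.236% and 0% of B-like cells. Fibroblast-like cells held 106 CPM (63.6 to 165) and 84.4 (52.2 to 129), interstitial macrophage-like cells 66.5 and 72.4, and mesothelial-like cells 60.01 and 49.9. The intervals of these 4 classes overlapped in the control library. In the fibrosis library that of alveolar macrophage-like cells overlapped that of fibroblast-like cells. It lay above those of interstitial macrophage-like and mesothelial-like cells. Type 2 dendritic-like cells held 0 and 16 UMIs in 59 and 132 cells, too few for a call. Their fibrosis level was 22.2 CPM (12.7 to 36.0), and the zero count allows up to 10.2 CPM in the control library.

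Alveolar macrophage-like cells fell mainly in 3 clusters. The cluster led by Fabp1, Ear1 and Cidec held 593 control and 540 fibrosis cells of the class, and Nrp2 there was 69.6 CPM (60.4 to 79.9) and 86.65 (75.9 to 98.5). The cluster led by Mmp12, Spp1 and Rnase2a held 28 and 277 cells, and Nrp2 was 90.3 CPM (50.6 to 149) and 172 (154 to 192). The cycling cluster led by Hist1h2ap and Top2a held 38 and 55 cells at 113 and 109 CPM. Within the fibrosis library the Nrp2 interval of the Mmp12-led cluster lay above those of the other two. Interstitial macrophage-like cells in the Mmp12-led cluster, 42 in the fibrosis library, held 146 CPM (106 to 195), against 53.7 (41.4 to 68.6) for those in the cluster led by C1qa. Flt1 was 180.5 CPM (165 to 197) and 140.1 (126 to 155) in the Fabp1-led cluster and 132 (83.0 to 201) and 116 (101 to 132) in the Mmp12-led one.

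AT2-like cells fell mainly in the cluster led by Bex2, Bex4 and Sftpc (938 and 1181 cells) and, in the fibrosis library, in one led by Slc26a4, Retnla and Chia1 (40 and 465), which found no class name of its own as a cluster. Vegfa was 42.85 CPM (37.6 to 48.6) and 50.7 (45.5 to 56.3) in the first. In the second it was 21.2 CPM (7.78 to 46.1, 6 UMIs) and 68.8 (60.02 to 78.5, 221 UMIs). Within the fibrosis library the interval of the Slc26a4-led cluster lay above that of the Sftpc-rich one. Nrp1 there was 234 CPM (218 to 252) against 250.1 (238 to 262), with overlapping intervals.

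**Figure D4:**
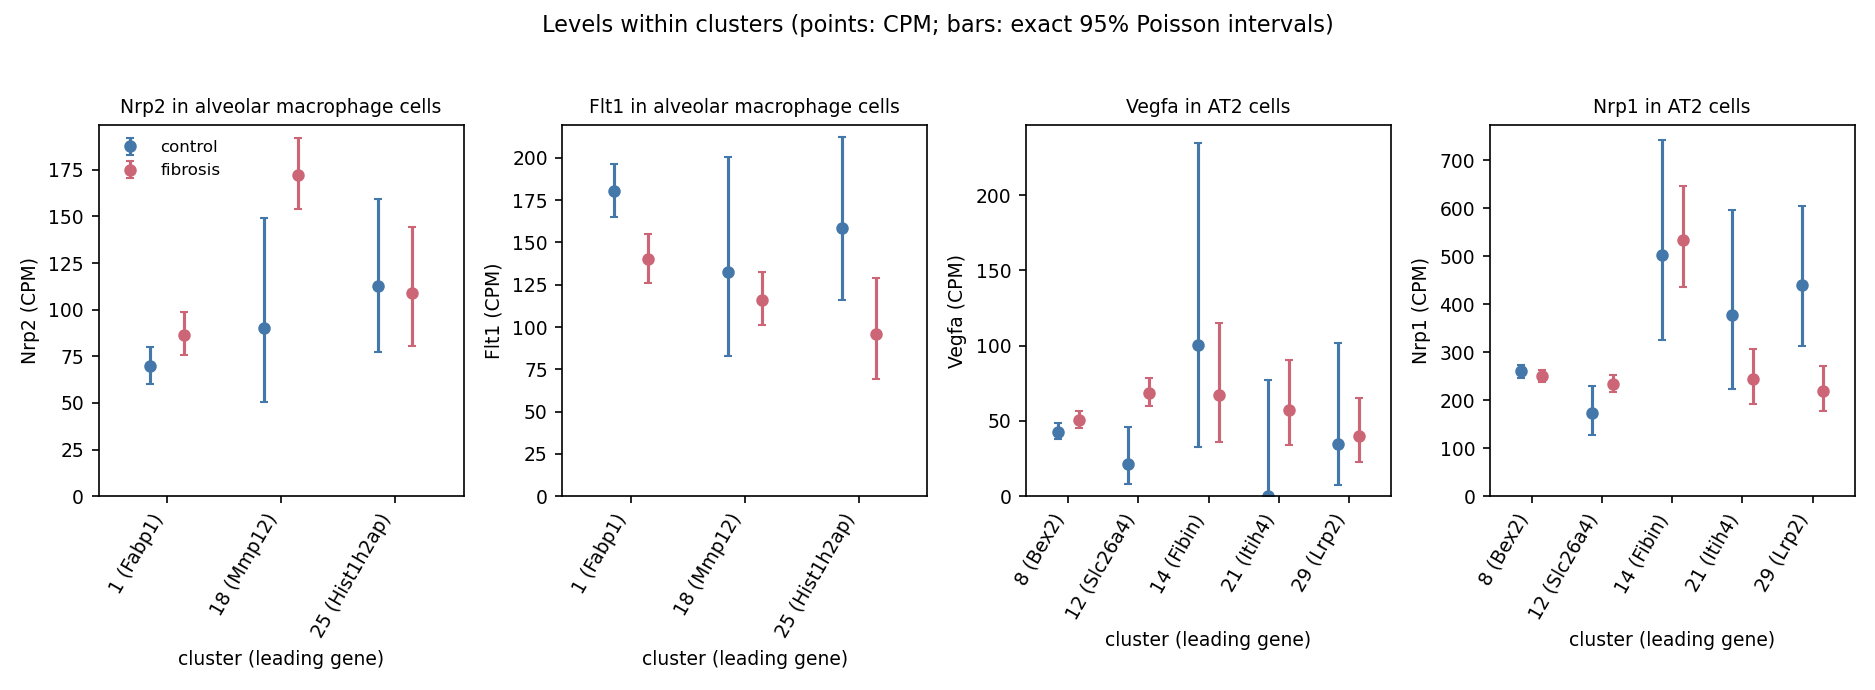
CPM of Nrp2 and Flt1 in the clusters of alveolar macrophage-like cells and of Vegfa and Nrp1 in the clusters of AT2-like cells, with points for each library (control blue, fibrosis red) and bars for exact 95% Poisson intervals. The fibrosis point of Nrp2 in the Mmp12-led cluster (172 CPM) lies above the other clusters, and that of Vegfa in the Slc26a4-led cluster (68.8 CPM) above the Bex2-led one.

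Beside AT1-like and mesothelial-like cells, the classes with VEGF genes tested and none called were fibroblast-like cells (2 tested, beside 10.1% of all genes called), interstitial macrophage-like cells (4 tested, 11.9%), classical monocyte-like cells (4 tested, 11.9%), neutrophil-like cells (2 tested, 31.7%), type 2 dendritic-like cells (1 tested, 8.03%) and plasmacytoid dendritic-like cells (1 tested, 8.3%). No VEGF gene reached 20 UMIs in ciliated-like or NK-like cells. Nrp1 in classical monocyte-like cells was 67.6 CPM from 604 UMIs and 88.9 from 190, with a log2 ratio of 0.40 (0.15 to 0.63) under the 1.5-fold rule. Kdr in plasmacytoid dendritic-like cells, 3 and 15 UMIs, rested on 1 fibrosis cell with 3 or more endothelial markers that held 12 of the 15.

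**Figure D5:**
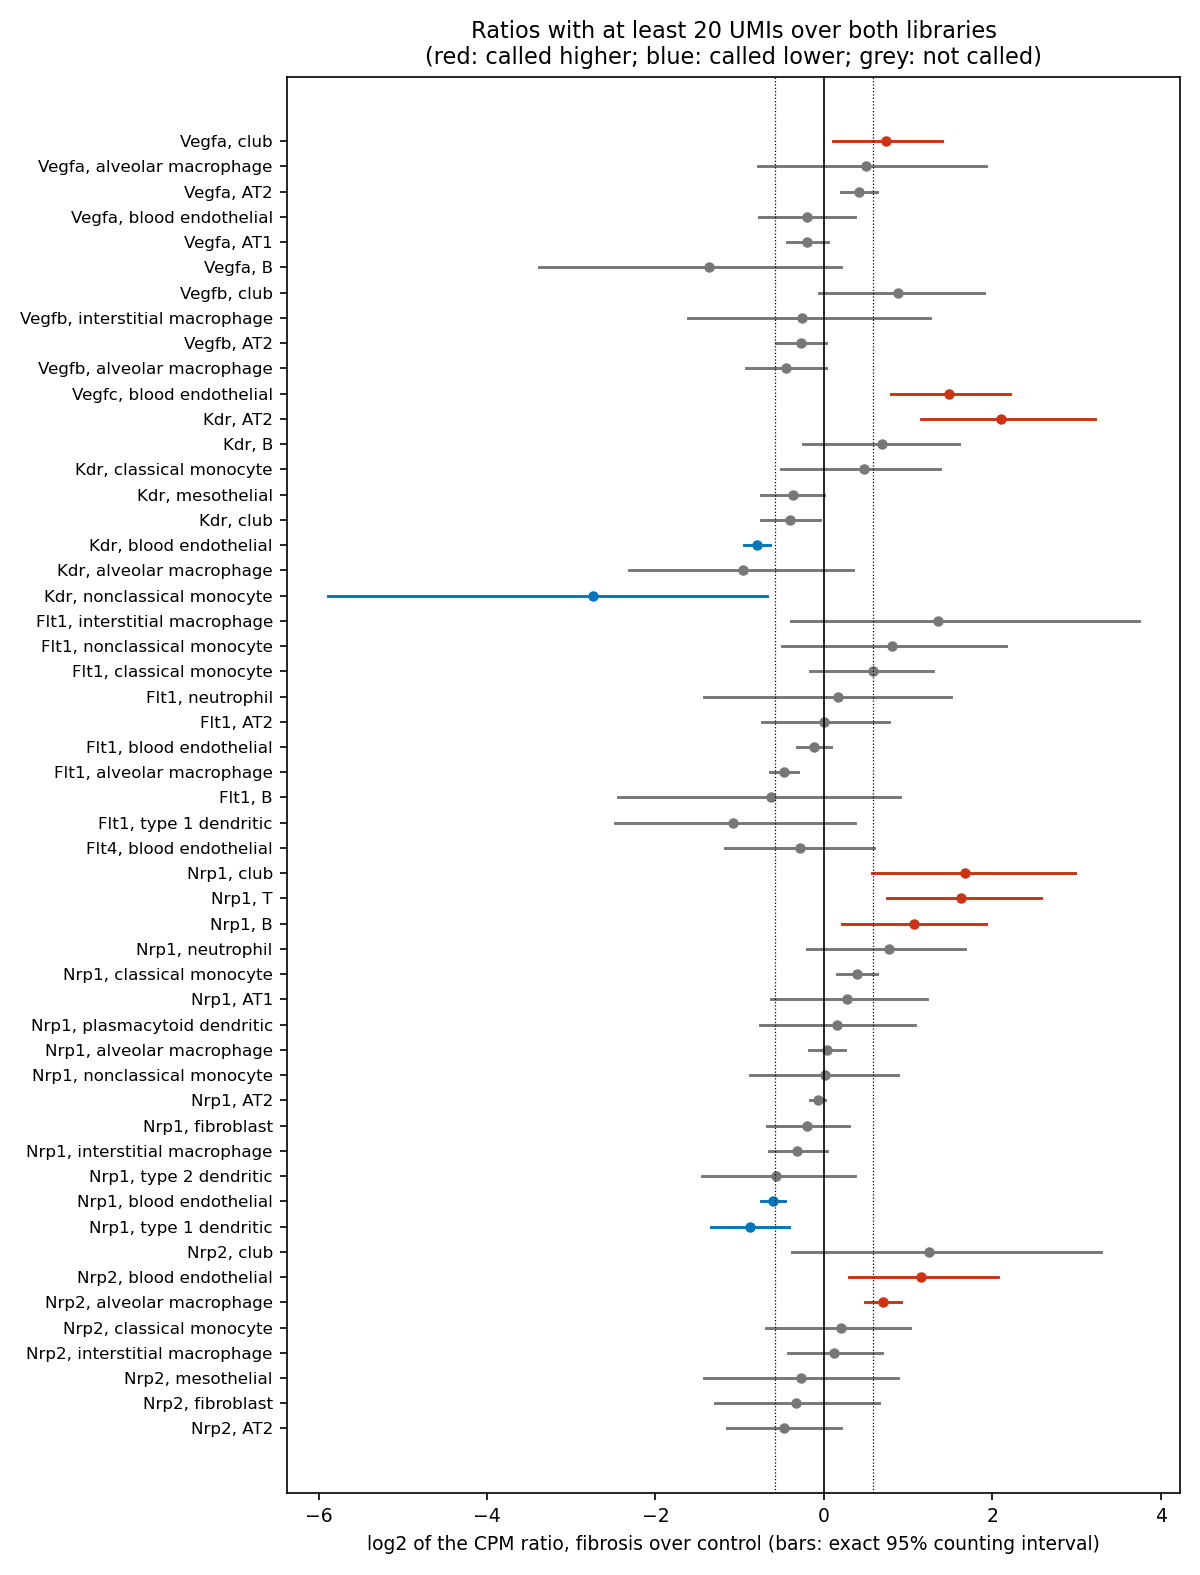
Log2 ratio of CPM, fibrosis over control (horizontal axis), with its exact 95% counting interval for the 52 gene and class pairs with at least 20 UMIs over both libraries, in red where called higher, blue where called lower and grey where not called. The dotted lines mark 1.5-fold. Kdr and Nrp1 in blood endothelial-like cells lie at -0.79 and -0.60, Vegfc and Nrp2 there at 1.48 and 1.16.

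A further 62 genes in 5 lists around the VEGF pathway were read in blood endothelial-like, AT2-like and alveolar macrophage-like cells. In blood endothelial-like cells 45 had enough UMIs, and 8 were called higher, 5 lower and 32 neither. The share called, 28.9%, stood beside 13.5% over all genes, whose median log2 ratio was -0.05. Among the receptor partners and signal relay (14 of 18 tested, median -0.25) Ptprb, the endothelial phosphatase that restrains Kdr and Tek, went from 1056 to 1629 CPM (log2 ratio 0.63). Nos3, endothelial nitric oxide synthase, had a log2 ratio of 0.89 and Nfatc1, a calcium-responsive transcription factor, 1.10. Hspb1, a small heat shock protein downstream of p38 kinase, went from 1124 to 336 CPM (-1.74), Map2k1 had a ratio of -0.74 and Gipc1, which binds the tail of Nrp1, -0.85.

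Among 15 of 16 tested endothelial genes tied to VEGF signalling and sprouting (median 0.03), Apln, the apelin ligand, went from 211 to 94.4 CPM (-1.16) and its receptor Aplnr from 22.8 to 53.1 (1.22). Tek, the angiopoietin receptor, had a log2 ratio of 0.75 and Fli1, an ETS factor, 0.99. Dll4 (-0.19), Notch1 (-0.17), Esm1 (0.88, interval -0.29 to 2.15) and Erg (0.11) were not called. Of 7 tested semaphorins and plexins (median -0.20), Plxna1 was lower, from 161 to 72.3 CPM (-1.15). Of 9 tested regulators of Vegfa and hypoxia targets (median 0.08), Hif1a (0.75) and Pgk1 (2.91, from 4 to 31 UMIs) were higher. No gene of the list of other VEGF ligands and maturation of Vegfc had enough UMIs.

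Part of these values moved with the subset. Within aerocyte-like cells Apln was 434 and 396 CPM (log2 ratio -0.13, -0.58 to 0.31), and large vessel-like cells held 0 Apln UMIs in both libraries. Ptprb was 41.8 and 201 CPM in aerocyte-like cells (2.27, called higher), 1547 and 1570.3 in general capillary-like and 2543 and 2283 in large vessel-like cells. Markers of the other subsets moved with it in the control and fibrosis aerocyte-like cells, with Cd93 at 9.64 and 119.6 CPM, Gpihbp1 at 112 and 283, Vwf at 3.21 and 75.5 and Slc6a2 at 6.43 and 56.6. Their part in the Ptprb value was not tested. Hspb1 was lower within aerocyte-like cells (-1.16, -1.43 to -0.90) and large vessel-like cells (-1.26, -1.83 to -0.68), each called, and was -0.41 and not called in general capillary-like cells. Plxna1 was called lower in aerocyte-like cells (-0.81, -1.50 to -0.16).

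In AT2-like cells 45 of the 62 had enough UMIs, and 7 were called higher and 2 lower (20% beside 9.28%, with a median of 0.07 over all genes). Ptprb (-1.47, 145 and 94 UMIs) and Hspb1 (-1.07, 163 and 77.5 CPM) were lower. Sema3f, Prkcb, Apln, Unc5b, Fli1, Ets1 and Pgk1 were higher, each from a control level of at most 5.05 CPM. Blood endothelial markers were also found in 21 control and 50 fibrosis AT2-like cells (3 or more of 10), and their part in these values was not tested. The median over the 10 tested sprouting genes was 0.62. Of 10 tested regulators of Vegfa and hypoxia targets (median 0.17), 1 was called. It was Pgk1, a glycolytic enzyme induced by hypoxia, which went from 18 to 285 UMIs (3.14). The other 9, Ldha among them, were not called.

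In alveolar macrophage-like cells 33 were tested, and 5 were called higher and 2 lower (21.2% beside 8.73%, with a median of -0.05 over all genes). Of 4 tested semaphorins and plexins 3 were higher (median 0.88): Plxnd1, a receptor for class 3 semaphorins, went from 26.8 to 57.4 CPM (1.10), Plxna1, a partner of the neuropilins, from 27.3 to 43.1 (0.66), and Sema3c from 2.67 to 6.96 (1.38). Of 9 tested regulators of Vegfa and hypoxia targets (median 0.33), 2 were higher and 7 were not called. Epas1, the hypoxia-inducible factor 2 alpha gene, went from 32.4 to 59.6 CPM (0.88) and Pgk1 from 6.24 to 45.1 (2.85). Ptprb (-0.92) and Cxcr4 (-0.73) were lower. Pgk1 was called higher in all 3 classes and held 442 UMIs over the control and 1678 over the fibrosis cells.

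Other members of the wider family had their own sites. Vegfd, the second ligand of Flt4, was highest in fibroblast-like cells, 261 CPM from 47 UMIs and 333 from 83. Sema3e, a ligand of Plxnd1, was highest in AT1-like cells at 423 and 461 CPM, as was Sema3a, a Nrp1 ligand, at 219 and 181. Sema3c was highest in mesothelial-like cells at 636 and 631 CPM. Sema3f, a Nrp2 ligand, was highest in blood endothelial-like cells at 310 and 227 CPM. Pgf, which binds Flt1, totalled 39 and 30 UMIs.

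The genes whose pattern over classes was most like each member were found by Pearson's r of log2(CPM + 1) over 17 classes with at least 30 cells in each library, both libraries averaged, among 12812 genes with at least 100 UMIs. AT1-like cells (28 in the control library) and lymphatic endothelial-like cells (6 and 24) fell under that minimum. The lists thus leave out the class with the highest Vegfa level and the one with the highest Flt4 and Nrp2 levels. Points share 2 libraries and differ in depth, and r is a description. For Vegfa the most alike genes included Atp8b1 (0.88) and Eva1a (0.87), and for Vegfb Lss (0.88), Srebf1 (0.83) and Pmepa1 (0.83). Vegfc was closest to Klf7 (0.88), Foxf1 (0.87) and Hspa12b (0.86). Kdr was closest to Dll1 (0.86), Pdlim3 (0.85) and Rapgef3 (0.84), and Flt1 to Vwf (0.88), Adcy4 (0.84) and Dysf (0.83). Flt4 was closest to Lmcd1 (0.95), Hilpda (0.94) and Fam65a (0.93), Nrp1 to Fmnl2 (0.78), Dnajb5 (0.77) and Eng (0.76), and Nrp2 to Dpp7 (0.89), Colec12 (0.88) and Kazald1 (0.87). With a pseudocount of 10 in place of 1, 10 of these 24 genes stayed in the lists, and with at least 50 cells in each library 3 did, so the names depend on these settings.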

How the data were processed

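Single-cell suspensions of 1 control and 1 fibrosis mouse lung were sequenced on 10x Chromium 3′ V2. The deposited values are raw UMI counts per gene and cell, made by the authors with bcl2fastq and Cell Ranger 1.3 on mm10, per the submitters' processing notes. The annotation they counted on is not given in the sources used here. Cells with at least 200 genes and at most 10% mitochondrial counts were kept. Doublets were scored with scanpy 1.11.5 (Scrublet): its threshold removed 168 fibrosis cells (2.42%), but marked only 13 control cells (0.162%), so there the expected share of 6.42% (515 cells) with the highest scores was removed. Each cell took the class with the highest mean of scaled marker levels (3 or more markers, score at least 0.2, margin at least 0.1, each gene scaled to its 50 highest cells). These thresholds were set after the cells had been seen, without VEGF genes. Of 189 markers 3 were not in the files. Leiden clusters (2000 variable genes, 30 components, 15 neighbours, resolution 1), with VEGF and pathway genes left out, gave the same class for 91.2% of cells named by both. Counts were summed per class and library. Ratios carry exact conditional binomial intervals and levels exact Poisson intervals at 95%, from scipy 1.17.1, and the limit for a count of 0 is 3 counts. These cover counting error only. The ratio step was tested on simulated counts. Thinned shares come from 1 random draw of 1000 UMIs a cell. Gene positions are those of GENCODE on GRCm38.

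The members and lists were chosen with earlier results of these data known. Named genes are all 8 members, the listed pathway genes called in a class (at most 10 a list), genes of a list named as not called, and the 3 genes most like each member. One gene that this rule names is not reported here. Alternatives changed the classes, UMI floor, doublets, mitochondrial limit, call rule and weighting.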

Additional observations from a re-analysis of the deposited data

Results flagged for a closer look

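Kdr and Nrp1 were called in opposite directions in different classes of the same pair of libraries. The log2 ratio of Kdr was 2.10 in AT2-like cells, -0.79 in blood endothelial-like cells and -2.74 in nonclassical monocyte-like cells. That of Nrp1 was 1.68 in club-like, 1.63 in T-like and 1.07 in B-like cells, and -0.60 in blood endothelial-like and -0.88 in type 1 dendritic-like cells. The difference between the classes was not tested, since each condition has 1 library. Of the 77 fibrosis Kdr UMIs in AT2-like cells, 55 lay in 50 cells with 3 or more blood endothelial markers. Without such cells the Kdr call there was lost. The B-like call of Nrp1 was lost without the richest cell of each library. Nrp1 levels of club-like cells, and of T-like cells other than the regulatory-type ones, were no higher than those of B-like cells. Weighted by the control subset shares, the blood endothelial-like ratios were 0.04 for Kdr and -0.11 for Nrp1.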

How the results depend on the processing

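Over the alternatives, the log2 ratios of called pairs kept direction and call in 100 cases, kept direction and lost the call in 34 and reversed in 5. Among pairs not called, 32 cases gained the call and 431 did not. With classes from clusters Kdr was 0.36 in AT2-like cells, and Nrp1 was 1.08 in club-like, -0.53 in blood endothelial-like and -0.093 in B-like cells, while 12 pathway genes were called in alveolar macrophage-like cells. Nrp1 in blood endothelial-like cells was -0.49 with a floor of 2000 UMIs and -0.57 with at most 5% mitochondrial counts. With no doublet removal Kdr in AT2-like cells was -0.45, and Nrp1 was -0.58 in blood endothelial-like and 0.80 in B-like cells. With the same share of doublets removed, Kdr in AT2-like cells was 0.49, Vegfa in club-like cells 0.585, and Nrp1 -0.57 in blood endothelial-like and 0.41 in B-like cells. With the mean of each cell's CPM, Kdr and Nrp1 in blood endothelial-like cells were -0.57 and -0.51, Nrp1 in B-like cells was 0.50, and 22 pairs were called, against 12. Less the median ratio of the other classes, Kdr in blood endothelial-like cells was -0.42 and Nrp2 in alveolar macrophage-like cells 0.58. As thinned shares, Kdr in AT2-like cells was 2.08, and in blood endothelial-like cells Vegfc was 1.18, Kdr -0.40, Nrp1 -0.22 and Nrp2 0.53. Nrp1 was then 0.31 in type 1 dendritic-like, 1.502 in T-like and 0.62 in B-like cells. A 2-fold rule left 7 pairs and dropped Vegfa in club-like (0.74), Kdr (-0.79) and Nrp1 (-0.60) in blood endothelial-like, Nrp2 in alveolar macrophage-like (0.70) and Nrp1 in type 1 dendritic-like cells (-0.88). It left 6 pathway genes in blood endothelial-like cells, against 13, and 3 in alveolar macrophage-like cells, against 7.

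The next alternatives were chosen after seeing the data. Without cells holding 3 or more blood endothelial markers, Kdr in AT2-like cells was 0.32 and Nrp1 in B-like cells 0.61. Without the cell richest in the gene, Nrp1 in B-like cells was 0.67. Weighted by the control subset shares, Vegfc was 0.34, Kdr 0.036, Nrp1 -0.11 and Nrp2 -0.027 in blood endothelial-like cells. Planned, stricter subsets gave -0.59 for Vegfa in large vessel-like cells. Of 24 genes most like a member, 10 stayed with log2(CPM + 10), 3 with at least 50 cells and 11, added later, with at least 20 cells. For changes not shown by the alternative's own construction, the cause was not tested. No paired analysis was possible because each group has 1 library.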
